A study of Homo sapiens with 4 samples.

Results

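Nuclear receptors are transcription factors that sense hormones, vitamins, bile acids, fatty acids and sterols, or act without a known ligand as orphan receptors. FOXK2 binding was examined at 40 genes that encode them, chosen by gene symbol. Every peak whose assigned gene was among the 40 symbols was taken, which gave 41 of the 12471 peaks of replicate 1 and 71 of the 27281 peaks of replicate 2. The peaks came from chromatin immunoprecipitation and sequencing (ChIP-seq) with an antibody to FOXK2, a forkhead transcription factor, in OVCAR5 cells, an established line labelled as high grade serous ovarian cancer from ascites, for which the labels name no treatment. There were 2 biological replicates of 1 condition in 1 cell line. The 2 matched input libraries were not analysed here, so each value is a description of where FOXK2 was found and not a contrast between treatments.

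Receptors of this class carry a zinc finger DNA-binding domain and a ligand-binding domain. Many of them pair with a retinoid X receptor (RXR) on DNA, while steroid receptors bind as pairs of themselves and some orphan receptors bind alone. Their response elements are built from repeats of the hexamer AGGTCA or a related sequence. Without ligand, several of them recruit corepressor complexes, and ligand exchanges these for coactivators. Forkhead factors such as FOXK2 recognise a different sequence, the heptamer TGTTTAC.

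The forkhead heptamer lay in the stretch shared by the peaks of both replicates at 11 of the 20 receptor genes that had overlapping peaks (55%, 95% Wilson interval 34.2 to 74.2%), in 12 of the 30 pairs (40%, 24.6 to 57.7%). Over both lists it lay there at 40.3% of the 6784 genes with overlapping peaks and in 34% of the 9343 pairs, values within these intervals. The 11 sites of 10 of these genes (NR2F2 has 2) are printed, without the 2 sites of HNF4G, as 29 bases of the hg38 genome each, 5′ to 3′ on the strand that reads TGTTTAC, in order of the score of the peak pair, because they show the motif in its context in strong and weak pairs alike. The strongest pair, at NR4A2, held none. Capitals mark the heptamer.
RXRB, chr6:33200116-33200144, plus strand: gaggggacgcgTGTTTACaaacaaggggg
THRA, chr17:40072445-40072473, minus strand: ctgccaccactTGTTTACagaagctggaa
NR2F2, chr15:96053914-96053942, plus strand: gacatcctcctTGTTTACcagcagctgtc
NR3C1, chr5:143355939-143355967, plus strand: ttacagtaagtTGTTTACtccctgtctac
RORA, chr15:60592587-60592615, plus strand: ggccgccgctcTGTTTACaccgcgcccct
NR1H3, chr11:47249292-47249320, minus strand: gtccaaagggtTGTTTACatactgtgtcc
RXRA, chr9:134413982-134414010, plus strand: aagaggctctgTGTTTACagacacctccc
NR2F2, chr15:96093125-96093153, plus strand: cttatcttctcTGTTTACctctaaaatcg
ESRRG, chr1:216600807-216600835, minus strand: tcattctgcatTGTTTACtcttgtgcgta
NR5A2, chr1:200029493-200029521, minus strand: caggtgttctcTGTTTACgctcagagtgt
NR4A1, chr12:52026200-52026228, minus strand: tatttgtcccaTGTTTACattcataaaac
The centre of the heptamer lay between 1 and 29 bp from the middle of the 2 peak centres. The NR5A2 site lay in a GENCODE exon of its gene, and the other sites lay outside exons. The bases on either side of the capitals differed from gene to gene, and no AGGTCA or reverse complement stood within these windows or within 100 bp of the centres of the peaks they belong to.

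At 55% of the receptor genes FOXK2 was found in both replicates, against 28.6% of protein-coding genes. Of the 40 genes, 22 had a peak in replicate 1, and the same 22 also had a peak in replicate 2, where 31 genes had at least 1. Over the 20033 protein-coding genes of the RefSeq annotation the corresponding shares were 31.3% in replicate 1 and 51.7% in replicate 2, and 54.4% in either replicate. With only 40 genes, the 95% Wilson interval of the 55% ran from 39.8 to 69.3%, which covers counting error only and treats the genes as independent. Peaks that shared at least 1 bp between the replicates and were assigned to the same gene stood at 20 receptor genes (50%), against 25.5% of all protein-coding genes. A peak annotated to a promoter was present in both replicates at 9 genes (22.5%), against 9.31%. Among the 9, the annotation at RXRB and NR1H3 names a transcript of a neighbouring gene (SLC39A7 and ACP2). The plot of gene lists shows these shares with the background as a black line.

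**Figure D1:**
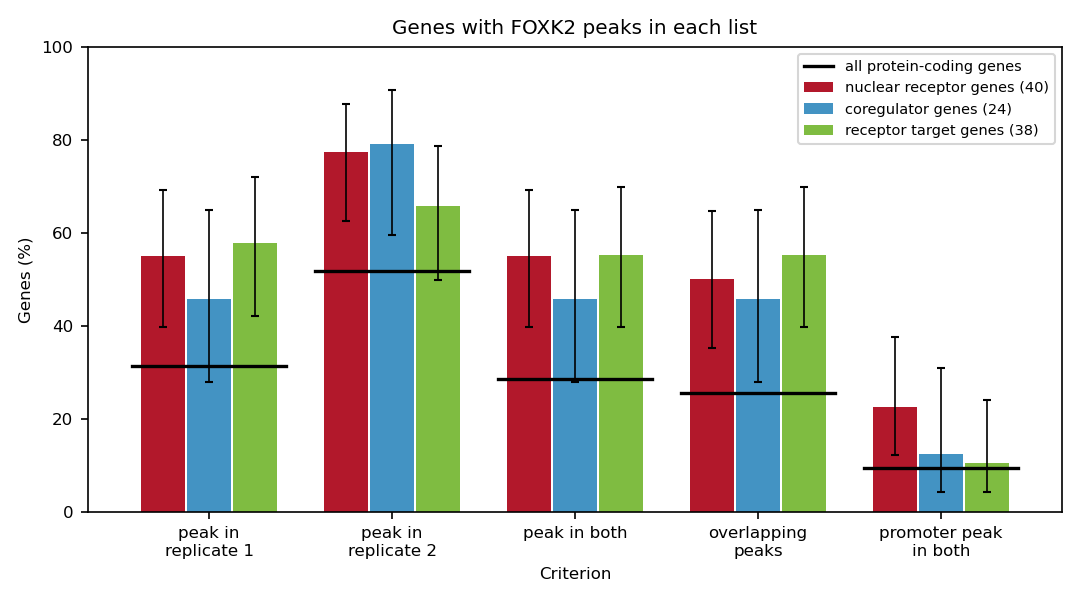
Percentage of genes (y axis) that met each criterion (x axis) among 40 nuclear receptor genes, 24 coregulator genes and 38 receptor target genes; error bars are 95% Wilson intervals and black lines are the share of all 20033 protein-coding genes. The bar of the receptor genes stands above the black line for each criterion, for instance 55% against 28.6% for a peak in both replicates.

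Many receptor genes have few neighbours, which matters because each peak is assigned to the gene with the nearest transcription start site (TSS). The stretch of genome closer to a gene's own start than to any other protein-coding start had a median of 148.5 kb for the 40 receptor genes and 64.1 kb for 19134 protein-coding genes. It was 283.1 kb for the 22 receptor genes with a peak in both replicates and 93.6 kb for the 9 genes with none. Among all protein-coding genes sorted by this stretch into 4 groups of equal size, the share with a peak in both replicates was 18.1, 23.1, 33.5 and 44.4% from the shortest to the longest. In the same groups the receptor genes with a peak in both replicates were 3 of 6, 1 of 4, 5 of 10 and 13 of 20. How much of the difference between 55 and 28.6% comes from the length of these stretches was not tested. Counting only peaks within 10000 bp of the assigned TSS left 14 receptor genes (35%) against 16.9% of all protein-coding genes.

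The number of peaks per gene was uneven. NR2F2 and NR5A2 alone held 9 of the 41 peaks of replicate 1 and 19 of the 71 peaks of replicate 2. NR5A2 had 3 and 11 peaks, NR2F2 6 and 8, and RORA 4 and 5, in replicates 1 and 2. A receptor gene with a peak held on average 1.86 peaks in replicate 1 and 2.29 in replicate 2, while the averages over all genes with a peak were 1.49 and 1.96. No peak in either list was assigned to NR1I3, NR2F1, NR5A1, RARG, RXRG, PPARA, THRB, ESRRA or HNF4A. The lists hold only peaks above the caller's threshold, whose lowest entries correspond to about 16 and 21 sequence tags, so binding below that level was not detectable. Assignment to the nearest start also matters, since THRB had called peaks inside its body that were assigned to other genes.

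**Figure D2:**
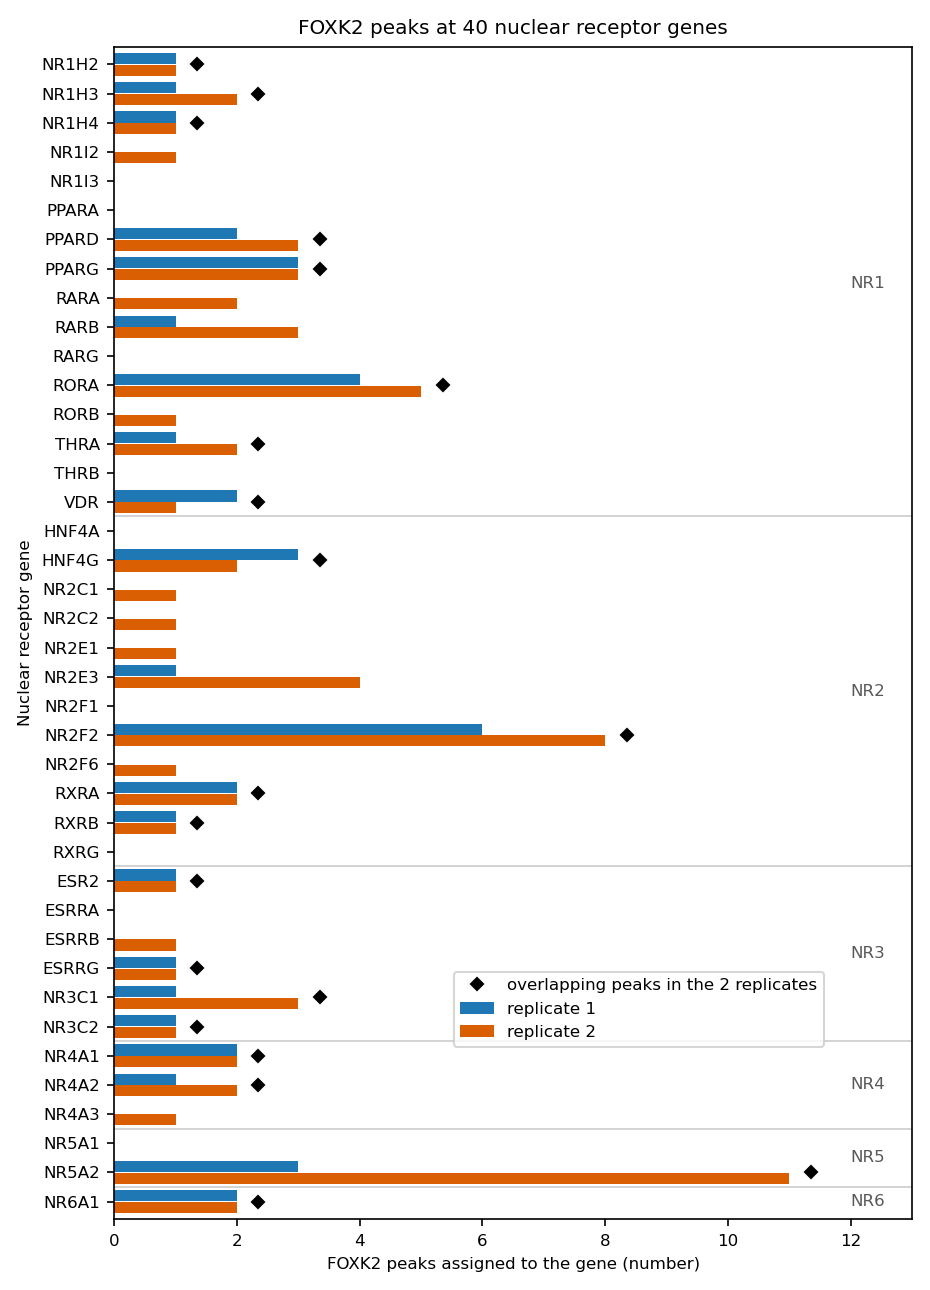
Number of FOXK2 peaks (x axis) assigned to each of the 40 nuclear receptor genes (y axis), in replicate 1 (blue) and replicate 2 (orange), grouped by subfamily NR1 to NR6; a diamond marks genes with peaks that overlap between the replicates. The longest bars belong to NR5A2 (3 and 11 peaks) and NR2F2 (6 and 8), and 9 genes have no bar.

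The 30 pairs of overlapping peaks ranged from weak to strong, with scores of at most 26.2 and 52.2 where the lists reached 188.3 and 387.9. The peak score of the HOMER software counts the tags in a peak after scaling the library to a common size, so peaks are ranked here within each list. A percentile is the place of a peak counted from the lowest score, as a percentage of that list. Peaks with tied scores were given their mean place. The median over the 30 receptor pairs of the mean percentile of both lists was 67, and it was 67.9 over all 9343 overlapping pairs. The 2 medians were thus less than 1 percentile point apart. Of the 41 receptor peaks of replicate 1, 17.1% (Wilson interval 8.53 to 31.3%) were in the highest-scoring 10% of the list, and of the 71 in replicate 2, 15.5% (8.88 to 25.7%), where all peaks had 10.1% in each list because of tied scores. A set of 7 pairs, at NR4A2, RXRB, THRA, NR2F2 (2 pairs), NR3C1 and RORA, lay above percentile 90 in both lists. They were 23.3% of the receptor pairs (Wilson interval 11.8 to 40.9%), against 13.2% of all pairs.

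**Figure D3:**
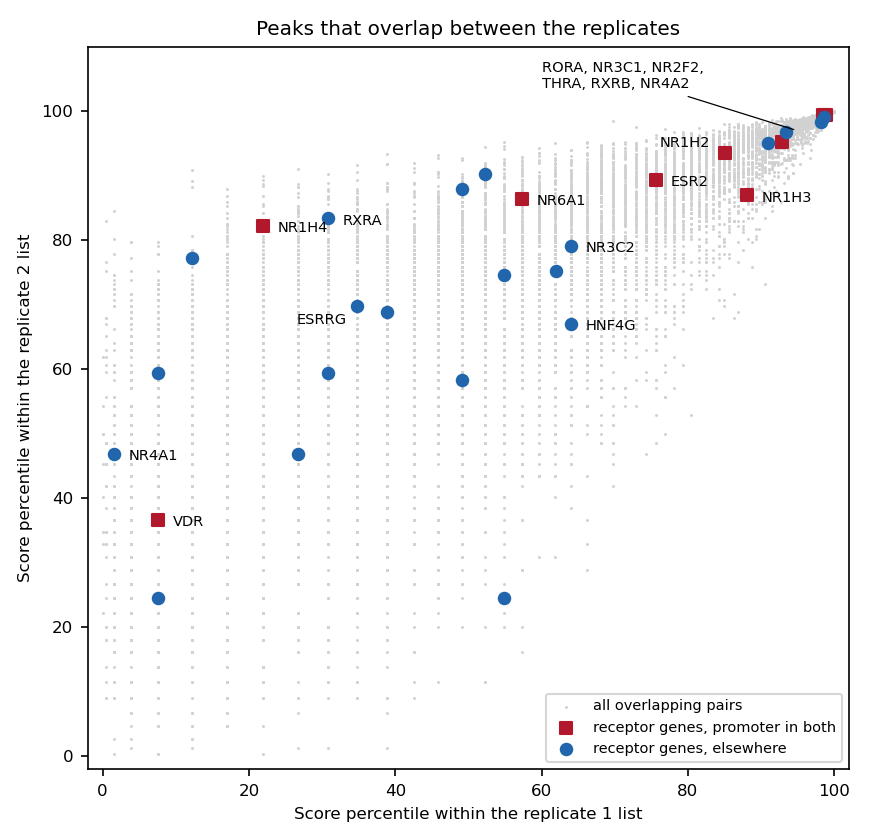
Score percentile of each overlapping peak pair in the list of replicate 1 (x axis) and of replicate 2 (y axis) for all 9343 pairs (grey), receptor gene pairs annotated to a promoter in both replicates (red squares) and other receptor gene pairs (blue circles). The 7 pairs above percentile 90 in both lists sit in the upper right corner, and the NR4A1 and VDR pairs stand at the low end of replicate 1 (percentiles 1.56 and 7.55).

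NR4A2, which encodes the immediate-early orphan receptor Nurr1, had the pair with the highest mean percentile. Its peak had a score of 26.2 in replicate 1 and 49.1 in replicate 2, which ranked 131 of 12471 and 156 of 27281. The implied tags were 139 (95% Poisson interval 116.9 to 164.1) and 330 (295.4 to 367.6). Both centres lay at the same base, 60 bp downstream of the TSS of NR4A2 (chr2:156332587-156332843 in replicate 2), inside an exon. No TGTTTAC was found within 100 bp of it. A heptamer with the substitution C7T (position 1 is the first T of TGTTTAC) stood 4 bp from the middle of the peaks. The same variant was close to the middle of the PPARG pair 51596 bp upstream of its TSS, also 4 bp away. It was 15 bp away at the NR1H4 promoter pair, 27 bp at the NR6A1 intronic pair and 32 bp at the second NR2F2 pair. Capitals mark it in the windows of NR4A2, PPARG and NR2F2, which are shown because NR4A2 and this NR2F2 pair are among the 7 strongest and the PPARG site is as close to the middle as that of NR4A2.
NR4A2, chr2:156332697-156332725, plus strand: caatgtgccttTGTTTATgtggcttgcgc
PPARG, chr3:12235881-12235909, plus strand: tttttgtccttTGTTTATcatttggaatg
NR2F2, chr15:96270864-96270892, minus strand: atcacagatctTGTTTATgttaagagctg
TGTTTAT stood within 100 bp of the centre in 14.6% of receptor peaks of replicate 1 and 16.9% of replicate 2, against 12.6 and 13% of all peaks, and its share of control windows 2000 bp to each side was 7.32 and 4.23% at receptor peaks and 5.45 and 5.51% at all peaks. The members of its own subfamily showed weaker peaks. NR4A1 (Nur77) had an overlapping pair 3395 bp downstream of the TSS with percentiles of 1.56 and 46.9, the lowest of all receptor pairs in replicate 1, and a promoter peak in replicate 2 only (percentile 57.1). NR4A3 had a single peak, at its promoter in replicate 2 (percentile 58.3).

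RXRB, 1 of the 3 retinoid X receptors that serve as shared partners, scored 23.0 (rank 188) and 52.2 (rank 131), and its 1 peak in each replicate was the second strongest receptor pair. The position was assigned to RXRB at 584 and 567 bp downstream, but the promoter annotation in the lists belongs to a transcript of the neighbouring gene SLC39A7, a zinc transporter. In the GENCODE annotation the nearest start was that of SLC39A7, at 193 and 176 bp, and the RXRB start lay 502 and 485 bp away, so the 2 genes share this peak and the data do not separate them. The stretch closest to RXRB's own start was only 2.17 kb, the shortest of the 40. RXRA had a weaker intronic pair 7335 bp downstream of the assigned TSS (percentiles 30.8 and 83.4), and RXRG had no peak.
The middle of the RXRB pair is printed below with the heptamer in capitals, chosen because it is the strongest receptor site that holds TGTTTAC.
RXRB, chr6:33200060-33200180, plus strand: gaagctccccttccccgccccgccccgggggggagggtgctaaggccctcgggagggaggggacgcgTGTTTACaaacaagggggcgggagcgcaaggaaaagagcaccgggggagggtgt

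THRA, the gene of thyroid hormone receptor alpha, had its pair in the first intron, 9638 and 9632 bp from the assigned TSS and, in both replicates, within 1000 bp of another GENCODE start of THRA. Scores were 23.8 (rank 176) in replicate 1 and 40.2 (rank 252) in replicate 2. Replicate 2 had a further intronic peak at 7132 bp with a score of 19.9 (rank 1573, percentile 94.2) that replicate 1 did not call. THRB, the gene of the other thyroid hormone receptor, was assigned no peak. The window around the THRA pair is printed on the plus strand, where the heptamer reads GTAAACA, in capitals.
THRA, chr17:40072390-40072510, plus strand: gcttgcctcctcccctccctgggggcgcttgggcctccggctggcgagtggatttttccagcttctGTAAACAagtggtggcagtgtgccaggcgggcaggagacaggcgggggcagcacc

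NR2F2 encodes the orphan receptor COUP-TFII, known for roles in the stroma of reproductive organs and in vein identity. It was assigned upstream peaks only, by the nearest TSS, and whether they act on this gene was not tested. Its 6 and 8 peaks lay between 29519 and 288439 bp upstream of the TSS, and none was at the promoter. The strongest pair stood 272018 and 271992 bp upstream, outside any GENCODE gene, with scores of 21.7 (rank 227) and 31.8 (rank 468). A second pair 55074 and 55089 bp upstream, inside the antisense transcript NR2F2-AS1, scored 12.1 (rank 1091) and 21.1 (rank 1332). A pair 206086 bp upstream had percentiles of 49.1 and 87.9, and a pair 232792 bp upstream had 38.9 and 68.9. In replicate 1 a further peak (percentile 84.2) lay 272604 bp upstream, less than 1 kb from the strongest, without a partner in replicate 2. NR2F2 also had the longest stretch closer to its own start than to any other protein-coding start, at 1864.6 kb. NR2F1, its closest relative, has a stretch of 1179.1 kb and had no peak.
NR2F2, chr15:96053863-96053983, plus strand: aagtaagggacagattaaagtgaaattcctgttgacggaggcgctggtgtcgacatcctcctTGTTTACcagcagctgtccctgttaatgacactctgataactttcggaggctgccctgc

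**Figure D4:**
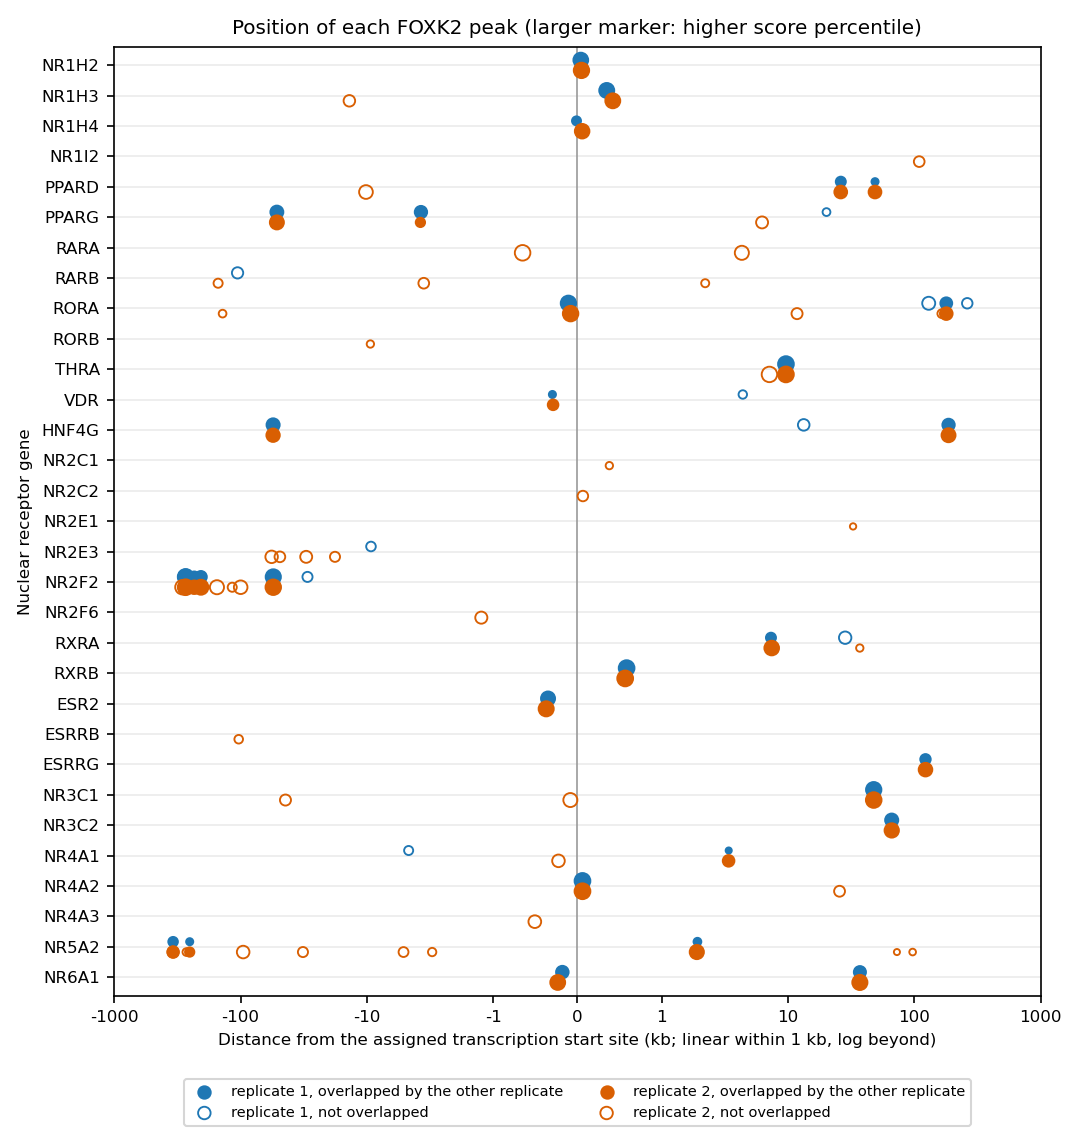
Distance of each FOXK2 peak from the assigned TSS (x axis, kb, linear within 1 kb and logarithmic beyond) for the 31 nuclear receptor genes with a peak (y axis); blue is replicate 1, orange replicate 2, filled markers overlap the other replicate and larger markers have higher score percentiles. The NR2F2 markers all lie upstream of the TSS, and filled markers sit near 0 for NR4A2, NR1H2, NR1H4 and RORA.

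Among the steroid receptor subfamily, NR3C1, the glucocorticoid receptor gene, had the highest pair. It lay in the second intron, 47718 and 47730 bp from the TSS, and scored 13.6 (rank 813) and 24.8 (rank 880). Both peaks held TGTTTAC and the AP-1 motif TGANTCA within 100 bp of their centres. Replicate 2 also had a promoter peak (percentile 74.6), 84 bp upstream, and an intergenic peak 44103 bp upstream (percentile 40.2), and replicate 1 called neither. NR3C2, the mineralocorticoid receptor gene, had 1 intronic pair at 66226 bp with percentiles of 64 and 79.1. ESR2, which encodes estrogen receptor beta, had 1 promoter pair with scores of 8.3 (percentile 75.6) and 15.9 (percentile 89.4), 349 and 371 bp upstream, and no TGTTTAC within 100 bp. ESRRG had 1 intronic pair, at 122621 bp (percentiles 34.8 and 69.9). In this subfamily 4 of 6 genes (Wilson interval 30 to 90.3%) had overlapping peaks, against 25.5% of protein-coding genes, and the glucocorticoid receptor pair was the only one of the 4 above percentile 90 in both lists.

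In the largest subfamily, NR1, 8 of 16 genes (50%, Wilson interval 28 to 72%) had overlapping peaks, against 25.5% of protein-coding genes. In 5 of them (NR1H2, NR1H3, NR1H4, RORA and VDR; 14.2 to 55.6% of the 16) a promoter peak was present in both replicates, against 9.31%. RORA, a clock-linked orphan receptor, had a promoter pair 107 and 81 bp upstream with scores of 13.2 (rank 879) and 21.6 (rank 1270). It also had a pair in its long first intron, 179141 bp from the TSS (percentiles 49.1 and 58.3). The RORA window is printed because it is the 1 promoter among the 7 strongest pairs with both TGTTTAC and an annotation to the receptor's own transcript.
RORA, chr15:60592542-60592662, plus strand: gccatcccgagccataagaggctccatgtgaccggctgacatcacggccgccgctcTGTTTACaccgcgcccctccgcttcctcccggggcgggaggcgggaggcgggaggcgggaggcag
Both liver X receptors, the oxysterol sensors, had promoter peaks. NR1H2 (LXR beta) scored 10.0 (percentile 85) and 19.2 (percentile 93.5), 40 and 48 bp downstream of its TSS, without TGTTTAC. NR1H3 (LXR alpha) scored 10.9 (percentile 88.1) and 14.6 (percentile 87), 348 and 420 bp downstream, with TGTTTAC. The transcript named by the promoter annotation of the NR1H3 pair belongs to ACP2, a lysosomal phosphatase, although the nearest GENCODE start was that of NR1H3 in both replicates, at 290 and 362 bp, against 340 and 412 bp for ACP2.
NR1H4, the bile acid receptor FXR, had a promoter pair that was weak in replicate 1 (percentile 21.9) and higher in replicate 2 (82.2). VDR, the vitamin D receptor gene, had a promoter pair with percentiles of 7.55 and 36.7. Its 21 implied tags in replicate 1 were close to the lowest in the list, and its 41 in replicate 2 were below the median of 49. PPARG, the adipocyte lipid sensor, had intergenic and intronic pairs 51596 and 3733 bp upstream, with percentiles of 61.9 and 75.3, and of 54.9 and 24.5. The second of these also lay within 1000 bp of a GENCODE start of PPARG. PPARD had 2 intronic pairs, of which the higher had percentiles of 30.8 and 59.5.

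HNF4G, NR6A1 and NR5A2 were the other members with overlapping peaks. HNF4G, an orphan receptor of gut and kidney, had 2 pairs, 55247 bp upstream and 186711 bp downstream of the assigned TSS, with percentiles of 64 and 67.1, and of 54.9 and 74.6. NR6A1, the germ cell nuclear factor, had a promoter pair (percentiles 57.3 and 86.4) and an intronic pair at 37107 bp (52.2 and 90.3). The intronic pair was the 1 overlapping pair among the 30 with AGGTCA within 100 bp of the centre in both replicates. NR5A2, the liver receptor homolog LRH-1, had 3 pairs, and all were low in replicate 1 (percentiles 12.2, 26.7 and 7.55) and reached 77.2, 46.9 and 24.5 in replicate 2. Its other 8 peaks of replicate 2 had percentiles between 1.22 and 57.1. A gene could thus hold many peaks without holding a strong one.

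At 9 genes a peak was called in replicate 2 and not in replicate 1, with 10 peaks in all (NR1I2, NR2C1, NR2C2, NR2E1, NR2F6, NR4A3, RARA, RORB and ESRRB). They were 22.5% of the 40 genes, close to the 23.1% of protein-coding genes with a peak in replicate 2 only. Inside NR2C2 replicate 1 did have a peak, assigned to FGD5-AS1 (chr3:14947991-14948201, percentile 17), which no peak of replicate 2 overlapped. RARA, the gene of retinoic acid receptor alpha, stood out among them. Its promoter peak, 651 bp upstream of the assigned TSS and 20 bp from a GENCODE start, had a score of 22.0 (rank 1202 of 27281, percentile 95.6) and 148 implied tags, and no RARA peak was in the list of replicate 1. The remaining peaks of these genes, apart from a second RARA peak at percentile 75.3, ranged from percentile 2.71 to 58.3. NR2E3 and RARB had peaks in both replicates that did not overlap, and the 5 and 4 peaks involved did not exceed percentile 55.8.

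Receptor peaks overlapped the other replicate about as often as peaks in general. In replicate 1, 30 of 41 (73.2%, Wilson interval 58.1 to 84.3%) were overlapped, and 74.9% of all peaks were. For replicate 2 the share was 30 of 71 (42.3%, 31.5 to 53.8%) against 34.2%. With both lists cut to the same length of 12471 peaks, 61% of 41 receptor peaks of replicate 1 (45.7 to 74.3%) and 67.6% of the remaining 37 of replicate 2 (51.5 to 80.4%) were overlapped, against 60% of all peaks in each. Promoter annotations made up 22 and 19.7% of receptor peaks against 21.7 and 18% of all peaks. Introns made up 56.1 and 45.1% against 39 and 40.6%, and intergenic positions 22 and 32.4% against 34.1 and 36.5%. Positions beyond 100000 bp of the assigned TSS were 29.3% (17.6 to 44.5%) of receptor peaks in replicate 1 and 25.4% (16.7 to 36.6%) in replicate 2, where all peaks had 14.5 and 16.3%. In each replicate most of these distant receptor peaks were assigned to NR2F2, NR5A2 and RORA. The intervals treat peaks as independent and do not allow for such clustering. Of the receptor peaks, 29 of 41 and 36 of 71 lay inside the body of the gene they were assigned to. A further 3 and 13 lay only inside another gene, such as the NR2E3 peaks within THSD4 and the NR1I2 peak within GSK3B. For these counts inside genes no share over all peaks is given here, so they cannot be set against a background.

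TGTTTAC stood within 100 bp of the centre in 39% (Wilson interval 25.7 to 54.3%) of receptor peaks in replicate 1 and 28.2% (19 to 39.5%) in replicate 2. Over all peaks the shares were 30.5 and 28.2%. Control windows, equally wide and centred 2000 bp away on either side, held it in 1.22 and 2.82% at receptor peaks and 2.88 and 2.89% at all peaks. Receptor peaks that were overlapped by the other replicate held the heptamer in 40% of 30 cases in each replicate. Those that were not held it in 36.4% of 11 (15.2 to 64.6%) in replicate 1 and 19.5% of 41 (10.2 to 34%) in replicate 2. No such split over all peaks is given here, so this difference is not a result about receptor peaks. The receptor response hexamer AGGTCA was in 7.32% (2.52 to 19.4%) and 9.86% (4.86 to 19%) of receptor peaks, and in 6.1 and 12% of their control windows. All peaks held it in 13.9% in each replicate, and their control windows in 14.3 and 14.6%. TGANTCA was in 14.6% (6.88 to 28.4%) and 15.5% (8.88 to 25.7%) of receptor peaks, and in 7.32 and 5.63% of their control windows. All peaks held it in 20.8 and 21%, and their control windows in 6.02% in each replicate. All motifs were searched on both strands. None of the 3 motifs contains another, and a match describes the sequence and not a bound site.

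**Figure D5:**
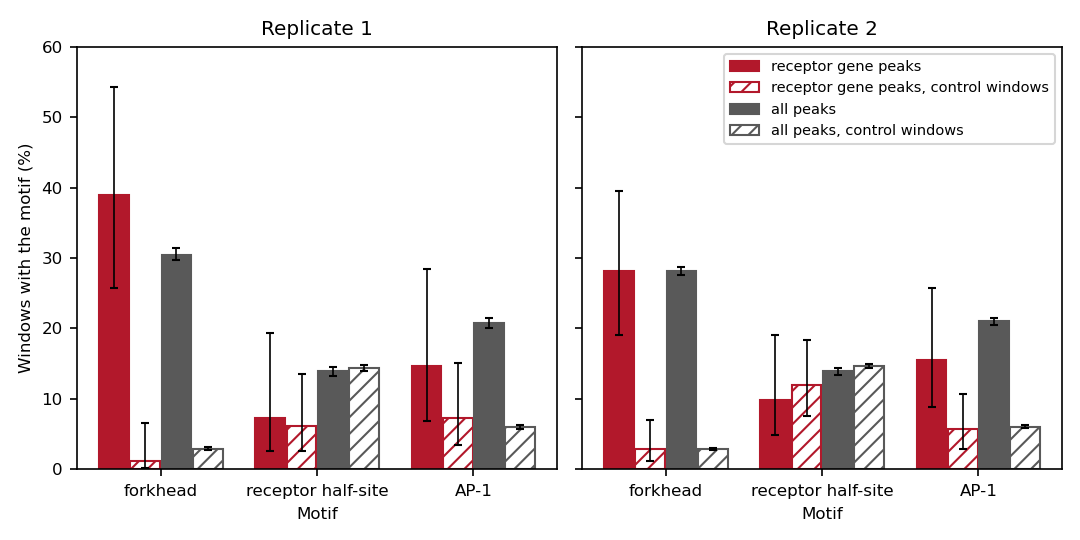
Percentage of windows (y axis) that hold the forkhead heptamer TGTTTAC, the receptor hexamer AGGTCA or the AP-1 motif TGANTCA (x axis) within 100 bp of the peak centre, for receptor gene peaks (red) and all peaks (grey), with control windows 2000 bp away hatched; error bars are 95% Wilson intervals. The forkhead bars of receptor peaks (39 and 28.2%) stand far above their control windows (1.22 and 2.82%), and the intervals of receptor peaks and all peaks overlap for this heptamer.

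In the tabulated RefSeq promoters the heptamer was rare. Of the 83 RefSeq promoters of the 36 receptor genes found in the promoter table (250 bp before to 50 bp after a start, GRCh38.p14), 3 held TGTTTAC (3.61%), against 3.42% of all 35116 promoters. They belonged to ESRRG, NR3C1 and NR5A2, and none of these genes had a promoter peak in both replicates. HNF4G, NR2F6, NR4A2 and VDR had no entry. The entry of RORA is at another start (chr15:60627481-60627780), so the RORA heptamer printed above lies outside these windows. Among the genes with a promoter pair, only those of ESR2, NR1H2 and NR6A1 overlapped a window tabulated for their gene. AGGTCA was in 18.1% of the 83 promoters and in 13.8% of all promoters, and TGANTCA in 6.02 and 7.71%.

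Genes that work with the receptors were examined in the same lists. Of 24 coregulator genes, 11 (45.8%, Wilson interval 27.9 to 64.9%) had a peak in both replicates, and all 11 had overlapping peaks. The corresponding shares of protein-coding genes were 28.6 and 25.5%, of which 28.6% lies within this interval. The 11 genes were 4 of 10 corepressors and 7 of 14 coactivators. With peaks within 10000 bp of the TSS only, 5 of the 24 (20.8%) had one in both replicates, against 16.9% of protein-coding genes. In replicate 2, 19 of the 24 had a peak (79.2%), against 51.7%. NCOA3, a p160 coactivator amplified in some cancers, had the highest pair (ranks 2021 and 1643), in an intron 74968 bp downstream of the assigned TSS. PPARGC1A, the coactivator PGC-1 alpha of mitochondrial gene expression, had 6 and 15 peaks, the best of them 3517 bp upstream (percentiles 85 and 89.4). NCOA2 had a pair at its promoter (82.5 and 91.4), as did TBL1X (79.3 and 85) and GPS2 (38.9 and 48.5), both of which encode subunits of corepressor complexes. PPARGC1B had an intergenic pair 33096 bp upstream (81.5 and 85).

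A list of 38 genes known as transcriptional targets of the receptors was chosen with earlier results of these data known. Of the 38, 21 (55.3%, Wilson interval 39.7 to 69.9%) had peaks in both replicates, against 28.6% of protein-coding genes. All 21 had overlapping peaks, against 25.5%. By ligand class these were 5 of 6 retinoic acid targets, 4 of 7 PPAR targets, 3 of 5 LXR targets, 4 of 6 glucocorticoid targets, 2 of 4 thyroid hormone targets, 1 of 4 FXR targets, 1 of 3 PXR and CAR targets and 1 of 3 vitamin D targets. PDK4, the kinase that switches off pyruvate dehydrogenase, had a promoter pair with ranks of 156 and 145 and TGTTTAC in both replicates. PER1, a clock gene induced by glucocorticoids, had a pair 4328 bp upstream (ranks 195 and 244), and DUSP1, a phosphatase that ends MAP kinase signals, had one 1320 bp upstream (ranks 273 and 252). ABCA1, the cholesterol exporter, had a promoter pair (ranks 583 and 869), and ABCG1, which acts with it, had a lower one (percentiles 66.1 and 77.2). The thyroid hormone target KLF9 had a pair 6235 bp upstream (ranks 813 and 516). The study, from the same ChIP-seq, counts KLF9 among known FOXK2 targets. STRA6, the retinol importer, had a promoter peak in both replicates. Promoter peaks in both replicates were seen at 4 of the 38 target genes (10.5%) and 3 of the 24 coregulator genes (12.5%), against 9.31% of protein-coding genes.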

How the data were processed

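Binding of FOXK2 was read from 2 peak lists, 1 per replicate. According to the labels and the study's methods, the authors aligned the reads to hg38 (Bowtie2 2.2.6) and called and annotated peaks in each replicate separately (HOMER 4.10). The study also describes statistics per peak and a comparison of target with input. The lists used here hold no such column, and whether the input entered the calling that made them is not given in the sources used here. The deposited lists give a peak score, a focus ratio (a fraction: the share of tags on the expected side of the centre), hg38 positions and the gene with the nearest TSS. Peaks span 210 bp (replicate 1) or 256 bp (replicate 2).

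Deposited scores below 10 were all whole multiples of 0.1886 and 0.1487 (tolerance 0.0051). If 1 step is 1 tag after scaling to 10000000 tags, the libraries held 53.0 M and 67.2 M tags, with a median of 31 and 49 tags per peak. Tag numbers rest on this reading. Poisson and Wilson intervals cover counting error only. Overlap meant at least 1 bp, and motifs were sought within 100 bp of the centre. Gene bodies and starts came from GENCODE 44, and the background was every RefSeq protein-coding gene, matched by Entrez ID.

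Python 3.11.15, pandas 2.3.3, scipy 1.17.1, statsmodels 0.14.6, pysam 0.24.0 and samtools 1.23.1 were used. Simulated peaks and windows with known answers were used to check the scripts. With 1 condition, no test between groups was made. Described singly were genes whose promoter had a peak in both replicates, up to 15 genes with the highest overlapping pairs and the 3 genes with most peaks in replicate 2, and genes without a peak were given by name. Coregulators and targets were named by the promoter rule or as 1 of the 5 highest of their list. RARA, RARB, NR2E3, NR4A1, NR4A3, PPARD and genes seen in a single replicate were named after their values were seen. Members, lists and motifs were chosen with earlier results of these data known. Alternatives were shorter lists, distance limits, stricter overlap, other motif searches and each replicate alone. Input libraries and expression data were not analysed here.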

Additional observations from a re-analysis of the deposited data

Results flagged for a closer look

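Some peaks lay inside receptor genes but were assigned to another gene, because a start of that gene was nearer, and so entered none of the counts above. There were 9 such peaks in replicate 1 and 21 in replicate 2, in 7 receptor genes each time, and 6 in each replicate overlapped a peak of the other. THRB, thyroid hormone receptor beta, which was assigned none, had 3 and 10 of them. The higher of its 2 overlapping pairs, in an intron and assigned to LOC101927854, had percentiles of 74.2 and 79.1, and the other had 45.9 and 73.9. The strongest of these peaks was in the last exon of NR3C1, assigned to ARHGAP26-IT1, with ranks of 1439 and 1544 (percentiles 88.1 and 94.3) and TGTTTAC in both replicates. NR6A1 had an intronic pair assigned to MIR181B2 (percentiles 71.4 and 82.6), also with TGTTTAC. NR1H4 had an intronic pair assigned to GAS2L3 (69.8 and 63), and RORA one assigned to RORA-AS2 (45.9 and 46.9).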

How the results depend on the processing

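Of 62 values recomputed for the main results, 47 stayed within 1.5 times the count or within the Wilson interval and 15 did not. The higher-scoring 50% of each list left 14 genes with a peak in both replicates, 35% of receptor genes against 17.2% of protein-coding genes. It also left 20 and 39 receptor peaks, and 13 genes with overlapping peaks. For these 13 no share over protein-coding genes is given here, so they cannot be set against a background. Peaks within 10000 bp of the TSS left 14 receptor genes (35%) and 5 coregulators (20.8%) against 16.9% of protein-coding genes, and 17 and 29 receptor peaks. Lists of equal length left 37 receptor peaks in replicate 2, of which 67.6% were overlapped, against 60% of all peaks. TGTTTAC stood in 40.5% of these 37, and no share over all peaks of the shortened list is given here. With these lists 20 receptor genes (50%) had a peak in both replicates, against 23.3% of protein-coding genes. Searching the looser TGTTTNC gave 42.3% of receptor peaks in replicate 2. No share over all peaks is given here for this motif, so the rise is not a result about receptor peaks. With a peak in either replicate counted, 19 coregulators (79.2%) had one, against 54.4% of protein-coding genes. Leaving out a replicate gave 22 to 31 receptor genes, 9 to 14 with a promoter peak, 11 to 19 coregulators and 22 to 25 target genes, where protein-coding genes had 31.3% (replicate 1) and 51.7% (replicate 2) with a peak and 11.9 and 21.2% with a promoter peak. Counting peaks inside a gene body too, chosen after seeing the data, gave 24 receptor genes with a peak in both (60%, against 33% of protein-coding genes) and 21 with overlapping peaks (52.5% against 29.4%). No paired analysis was possible because 1 group alone (FOXK2) was analysed, without the inputs, and no result comes from a test. The lowest listed peaks hold about 16 and 21 implied tags, which limits what can be called absent.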
